A study of Homo sapiens with 12 samples.

Results

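SK-UT-1 cells, an established line from a human uterine leiomyosarcoma (a malignant smooth muscle tumour), were exposed for 48 h to 5 µM JQ1 or to the DMSO vehicle, and their transcriptomes were compared by RNA-seq. The comparison rests on 7 of the 10 libraries with values, namely JQ1 replicates 17 to 20 and DMSO replicates 13 to 15, and the labels describe 12 libraries in all. A further 3 libraries from cells given 5 µM I-BET-762, a second BET inhibitor, for 48 h served to ask whether a response differed between the compounds. The libraries numbered 16 (DMSO) and 24 (I-BET-762) were not analysed here. Of the 22784 gene symbols, 14682 had a normalized count of at least 10 in at least 3 of the 7 libraries and were tested. The model is 1 cell line, and the labels do not state whether the replicates were separate cultures, so the p-values measure only the spread between these libraries, which may be technical.

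BET proteins, such as BRD2, BRD3 and the testis form BRDT, carry paired bromodomains that read acetylated lysine on histones. They bring the elongation kinase P-TEFb to promoters and enhancers, and genes under large enhancers, which often define the identity of a cell, are known to be sensitive to their loss. JQ1 is a thienotriazolodiazepine that fills the acetyl-lysine pocket of these bromodomains. In the cell P-TEFb is held inactive by 7SK RNA together with HEXIM1, and a rise in HEXIM1 is widely used as a marker of BET inhibitor exposure.

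Each DMSO library held 35564586 to 38899935 reads on genes and each JQ1 library 35691648 to 39658989, and a count of 0 allows up to 3 reads, or 2.73 to 3.30 normalized counts, by counting error alone. Of the smooth muscle markers in the list, ACTA2, TAGLN, CALD1, MYLK and SMTN were well expressed with DMSO, ACTG2 lay at or below 1.94 normalized counts in every one of the 7 libraries, and MYH11 was not analysed here. Summed over the 9 smooth muscle markers in the table, the counts were 20925 to 21519 with DMSO and 10871 to 11520 with JQ1. The JQ1 libraries were not alike in every gene. Among the 9921 genes with a mean of at least 200 normalized counts with JQ1, 123 were over 1.3 times higher in both replicates 17 and 19 than in both replicates 18 and 20, against 0 to 3 genes for each other way of splitting the group into pairs. The longest transcripts of those genes had a median GC content of 64.6%, against 46.9% for all genes of that level. Results that rest on such genes are given below with and without these libraries.

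With JQ1, 1960 genes (13.3% of those tested) were differentially expressed genes (DEGs) that rose and 3360 (22.9%) were DEGs that fell, 5320 (36.2%) in all. A DEG had a Benjamini-Hochberg adjusted p under 0.05 in limma and a fold change over 1.5 either way. The fold change was the difference between the group means of log2(normalized count + 1). The 4 JQ1 libraries lay wholly above or wholly below the 3 DMSO libraries for 10104 genes (68.8%), so that separation of the groups was common and is not in itself a sign of a large change. In bulk RNA, fewer cells expressing a gene and less of its RNA per cell cannot be told apart. The median log2 fold change over all genes tested was 0.01. Rescaling the libraries to equal totals moved that median by −0.18 and changed the split to 1206 rises and 4189 falls, 77.6% of the DEGs falling in place of 63.2%. Families are therefore described by their counts against 13.3% and 22.9% and by their median beside that of all genes. The plot of DEG shares by gene list shows keratins, protocadherins, collagens, ion channels and contractile genes at the falling end and metallothioneins, histones and immediate early genes at the rising end.

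**Figure D1:**
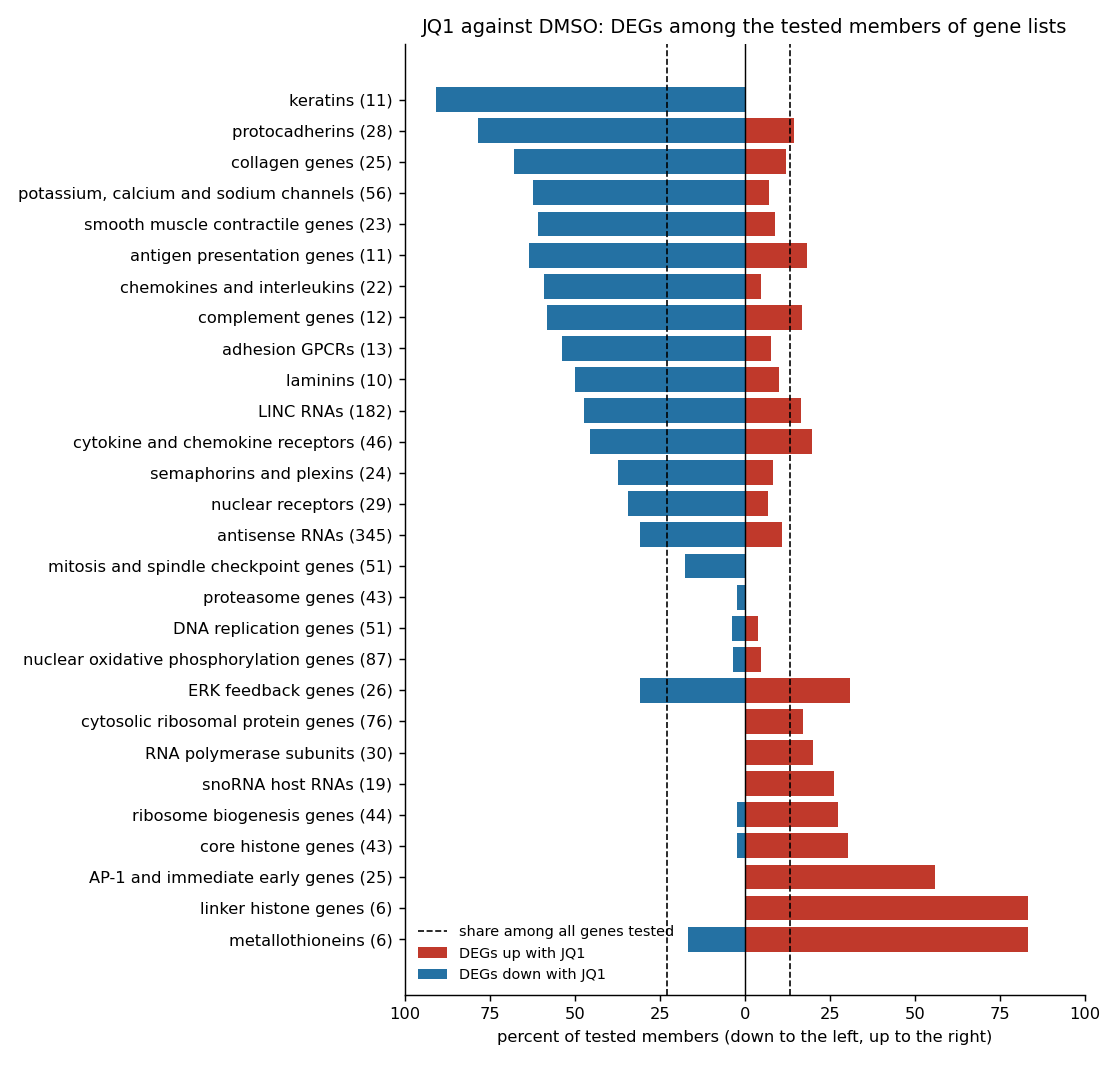
Percent of the tested members of each gene list (number in brackets) that were DEGs down with JQ1 (blue, to the left) or up with JQ1 (red, to the right), JQ1 n = 4 and DMSO n = 3 libraries. The dashed lines mark the shares over all 14682 genes tested, 22.9% down and 13.3% up.

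The genes with the largest changes are given first, among DEGs with a mean of at least 100 normalized counts in the higher group, no overlap between the groups, and no mention by name in the study. Most of the 12 largest rises came from genes with few reads under DMSO. PAG1, a transmembrane adaptor that recruits the kinase CSK to the membrane, had normalized counts of 35.8, 28.7 and 31.9 in the DMSO libraries and 929.6, 920.5, 932 and 930.1 in the JQ1 libraries (log2 fold change 4.82 ± 0.09 SE, limma adjusted p = 3.29e-15). TFPI2, a secreted inhibitor of serine proteases, went from 9.69, 5.55 and 9.1 to 199, 190.4, 200.1 and 199 (4.47 ± 0.18, adjusted p = 6.20e-12). TEX14, a protein of germ cell bridges, had 148, 172 and 142 in the DMSO and 2698, 2664, 2658 and 2875 in the JQ1 libraries (4.14 ± 0.08, adjusted p = 2.58e-15). In each of these genes every JQ1 library lay above every DMSO library, which the choice of genes without overlap required. The other 9 of the 12 largest rises had log2 fold changes of 3.39 to 4.42. They were MGAT4A (an enzyme that branches N-glycans), TTN (the giant sarcomere protein titin), TMEM132B, SIPA1L2, CRISPLD2, the long noncoding RNAs LINC00910 and LINC02432, TENM3 (an adhesion protein of the teneurin family) and ATP8A1 (a phospholipid flippase).

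PLXNA4, a receptor for semaphorin guidance cues, showed the largest fall chosen in the same way, from 312, 215 and 231 normalized counts with DMSO to 3.3, 1.09, 8.0 and 4.06 with JQ1 (log2 fold change −5.80 ± 0.38, limma adjusted p = 1.24e-09). PLXNA4 in JQ1 replicates 17 and 18 lay within the level that a count of 0 allows, so the size of its fall is uncertain. IFI44L, an interferon-induced gene, fell from 2752, 2668 and 2760 to 126, 123, 119 and 125 (−4.46 ± 0.07, adjusted p = 7.21e-16), and XAF1, another interferon-induced gene with a role in apoptosis, from 1277 to 43.7 on average (−4.84 ± 0.14, adjusted p = 9.44e-14). MUSK, the receptor kinase of the neuromuscular junction, had 124, 137 and 144 with DMSO and 4.39, 5.44, 2.0 and 6.08 with JQ1, where replicate 19 lay within the level that a count of 0 allows (−4.70 ± 0.33, adjusted p = 2.52e-09). The other 8 of the 12 largest falls were CPA4 (a carboxypeptidase), MX2 (an interferon-induced GTPase), DES (desmin, the muscle intermediate filament), KRT81 (a hair keratin whose reads can be shared with the neighbouring KRT86), SERPINF1 (the secreted protein PEDF), LINC00707, CCDC9B and DIPK1B, with log2 fold changes of −4.89 to −4.37.

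Genes were also ordered by the gain in normalized counts rather than by fold. Mean normalized counts rose from 302998 ± 14299 (SD, n = 3) to 520569 ± 66333 (SD, n = 4) for EEF1A1, the translation elongation factor (limma adjusted p = 3.02e-06). The glycolytic enzyme GAPDH rose from 169313 ± 3773 to 357052 ± 23840, the nuclear RNA MALAT1 from 149317 ± 4070 to 320516 ± 16464, the actin-binding peptide TMSB10 from 108002 ± 2982 to 222642 ± 11346 and the chaperone HSPA8 from 128939 ± 9198 to 232608 ± 29871, with adjusted p-values of 2.58e-09, 1.41e-09, 7.38e-10 and 4.20e-07. GAPDH is often taken as a constant reference for RNA measurements, and here its counts were 2.11 times higher with JQ1. Among the largest losses were ANXA1 (annexin A1, from 149074 ± 8379 to 87747 ± 9583), COL6A3, COL3A1 and FLNA (filamin A), with adjusted p-values of 2.40e-07, 2.33e-12, 3.91e-15 and 1.65e-07.

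**Figure D2:**
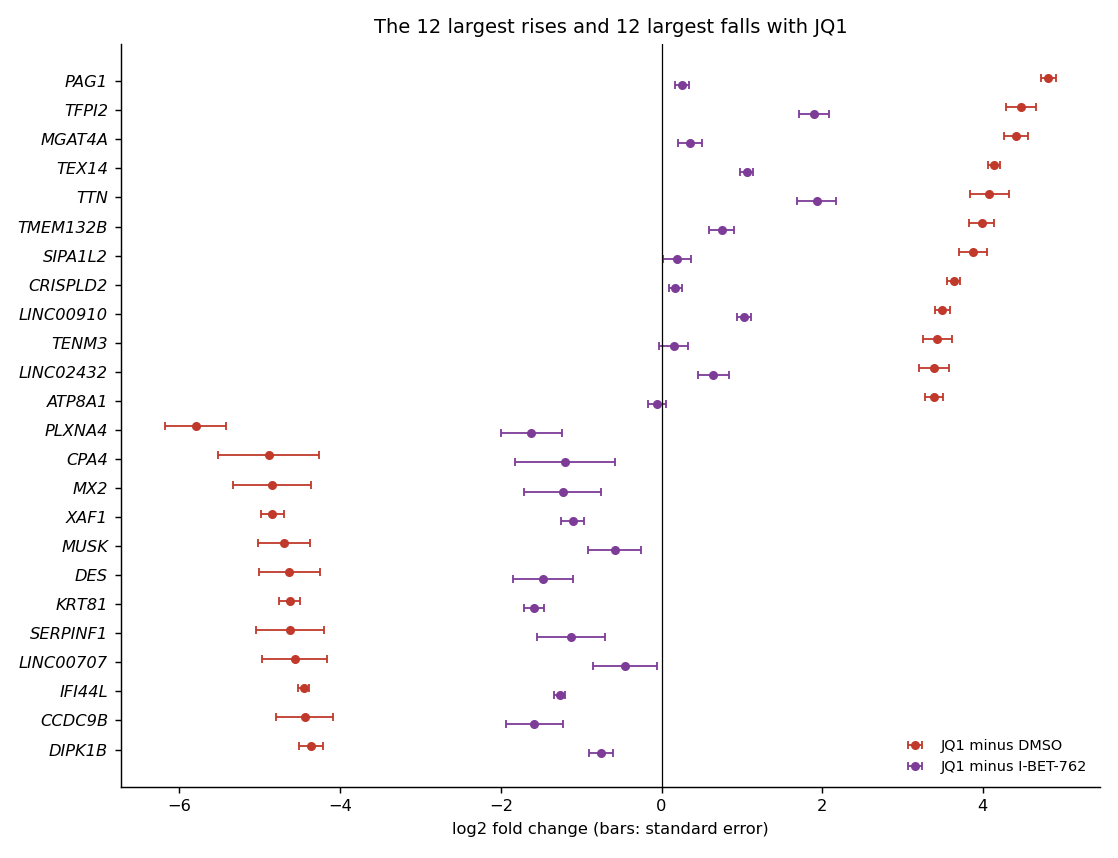
Log2 fold changes with standard errors for the 12 largest rises and 12 largest falls with JQ1, against DMSO (red) and against I-BET-762 (purple), from limma (JQ1 n = 4, DMSO n = 3, I-BET-762 n = 3 libraries). PLXNA4 lies furthest to the left at −5.80 and PAG1 furthest to the right at 4.82 against DMSO, and most of the purple points lie nearer to 0.

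The direct contrast of JQ1 with I-BET-762 at the same dose and time gave 258 genes higher with JQ1 (1.76%) and 525 lower (3.58%). Of the 12 largest rises against DMSO, 6 were also higher with JQ1 than with I-BET-762, among them TTN (5.81, 6.47 and 4.55 with DMSO, 116, 104, 112 and 108 with JQ1 and 33.5, 18.1 and 36.4 with I-BET-762) and TFPI2 (51.2, 49.1 and 56.1 with I-BET-762). Against I-BET-762, TTN differed by 1.93 ± 0.24 and TFPI2 by 1.90 ± 0.18 on the log2 scale, with adjusted p-values of 4.04e-05 and 4.18e-06. ATP8A1 did not pass the test between the compounds, with a 95% interval of −0.29 to 0.19. PAG1 did not pass either, with an interval (0.06 to 0.45) that was positive throughout but lay below the 1.5-fold threshold. Both compounds were set against the same 3 DMSO libraries, so their changes against DMSO are not independent of each other. The 12 rises were also chosen for high values in the same JQ1 libraries, which favours values above those of I-BET-762.

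Among the genes of the BET proteins and P-TEFb, 17 of 18 were tested, 3 rose as DEGs, 1 fell and 13 were not DEGs, with a median of 0.29. HEXIM1, which sequesters P-TEFb, had normalized counts of 1641, 1639 and 1601 with DMSO and 4627, 4451, 4898 and 4894 with JQ1 (log2 fold change 1.53 ± 0.05, limma adjusted p = 3.79e-13), and all 4 JQ1 libraries exceeded all 3 DMSO libraries. HEXIM2, its paralogue, went the other way, from 226, 281 and 278 to 94.5, 103, 122 and 114 (−1.26 ± 0.12, adjusted p = 1.42e-07). ELL2, a subunit of the super elongation complex, rose from 730.1 ± 41.8 to 1889 ± 124 (1.37 ± 0.06, adjusted p = 1.75e-11). MEPCE, which caps 7SK RNA, was a DEG at 0.89 ± 0.20 (adjusted p = 8.85e-04), but it is one of the genes that separate the JQ1 libraries, with 718, 329.7, 565 and 345 in replicates 17 to 20. Without replicates 17 and 19 its log2 fold change was 0.43, below the fold threshold.

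The RNAs of the JQ1 targets BRD2 and BRD3 were not DEGs with all libraries. BRD3 differed by −0.33 ± 0.07 on the log2 scale. BRD2 had 6.78, 12.9 and 153 normalized counts with DMSO and 144, 56.6, 26 and 32.5 with JQ1, groups that overlap, and since it lies in the MHC region, which has alternate copies in the genome assembly, its level is uncertain. The log2 fold change of BRD2 was 1.04 ± 0.77 (limma adjusted p = 0.24). Leaving out 1 library gave 0.18 without DMSO replicate 13, 0.60 without DMSO replicate 14 and 0.55 without JQ1 replicate 17, and 2.33 without DMSO replicate 15, where BRD2 became a DEG (adjusted p = 0.00185). The P-TEFb kinase CDK9 (0.07 ± 0.05) and its cyclin CCNT1 (0.20 ± 0.06) were not DEGs, and the small positive value of CDK9 turned to −0.12 after rescaling to equal totals. For CCNT2, ELL3 and NELFB the values were 0.02, 0.14 and 0.06, and each turned negative under that rescaling. Of the other members LARP7, AFF1, AFF4, ELL and SUPT5H, which hold 7SK RNA or make up elongation complexes, were not DEGs, at 0.32, −0.16, 0.30, 0.56 and 0.49, and BRDT was not tested. ELL passed the fold threshold without JQ1 replicate 18 (0.63) and without replicates 18 and 20 (0.66), which made 4 rising DEGs in the list. MYC, the transcription factor whose transcription often falls under BET inhibition, had 5339, 5219 and 4971 normalized counts with DMSO and 10278, 9632, 10551 and 11028 with JQ1 (1.0 ± 0.05, adjusted p = 1.29e-10), higher in 4 of 4 JQ1 libraries, and 7628, 7063 and 7860 with I-BET-762.

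Many genes of the smooth muscle contractile apparatus fell. Of 26 listed, 23 were tested, 14 fell as DEGs, 2 rose and 7 were not DEGs, with a median log2 fold change of −0.84 against 0.01 for all genes. TAGLN (transgelin, an actin-bundling protein of differentiated smooth muscle, ENSG00000149591.17, chr11:117199370-117207464 in GRCh38) had 1580, 1651 and 1565 normalized counts with DMSO and 108, 126, 143 and 126 with JQ1 (−3.67 ± 0.10, limma adjusted p = 5.94e-14). DES (desmin, chr2:219418377-219426735) went from 187, 188 and 187 to 8.79, 2.18, 6.0 and 14.2 (−4.63 ± 0.38, adjusted p = 1.81e-08) and CNN1 (calponin, which restrains actomyosin) from 84.3, 110 and 91.9 to 6.59, 6.53, 7.0 and 8.11 (−3.58 ± 0.28, adjusted p = 9.64e-09). These 3 genes were chosen for the largest falls of the list, which favours groups that lie far apart. DES in JQ1 replicate 18 was within the level that a count of 0 allows. CNN1 stayed under 10 normalized counts in every JQ1 library, so it was tested only through its DMSO values. Other members fell with smaller folds. Chosen after their values were seen, ACTA2 (smooth muscle actin) went from 7071 ± 225 to 3076 ± 361 (log2 fold change −1.21), the light chain MYL9 from 2532 ± 45.7 to 778 ± 67.1 (−1.71), the tropomyosin TPM4 from 23243 ± 1362 to 10561 ± 259 (−1.14) and FLNA from 55334 ± 5563 to 31067 ± 3567 (−0.83), with adjusted p-values of 3.48e-10, 4.90e-12, 6.28e-12 and 1.65e-07. Not all of the apparatus was lower. VCL (vinculin) stood at 24977 and 24915, MYL6 at 31522 and 33531 and SMTN (smoothelin) at 2324 and 2644, none of them a DEG, while PDLIM5, a Z-disc adaptor, rose from 123, 104 and 107 to 474, 425, 386 and 434 (1.94 ± 0.10, adjusted p = 6.63e-11). SRF, the factor that binds the CArG box of many of these genes, was not a DEG (2546 ± 43.2 and 2455 ± 188, log2 fold change −0.06 ± 0.06, adjusted p = 0.416).

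Promoters from RefSeq (GRCh38.p14) were searched on both strands for the CArG box in the 250 bases before each start. A promoter was found for 20 of the 23 tested contractile genes, and 4 of them (20%) held the motif, against 0.922% of the 11168 tested genes with a promoter. Many of the listed genes are known for this box, so the choice of the list favoured a higher share. A part of the box in the falls was not tested. The 4 were CNN2, MYLK, TPM4 and FLNA, all DEGs that fell, as did 14 of the 23 tested genes in all. CNN1, LMOD1 and ACTA2 also fell and held no match in this window, and no promoter was found for TAGLN, DES and MYL9. Of the immediate early genes, 20 of 25 had a promoter, and 2 (10%) held the box, namely SRF itself and EGR1, which rose with JQ1. The stretches of MYLK (the kinase of the myosin light chain) and EGR1 are shown because they carry the same kind of box and moved in opposite directions. Capitals mark the CArG box. The MYLK stretch lies at chr3:123620549-123620798 on the minus strand and that of EGR1 at chr5:138465229-138465478 on the plus strand. A match is a description of these letters and not a bound site.
MYLK: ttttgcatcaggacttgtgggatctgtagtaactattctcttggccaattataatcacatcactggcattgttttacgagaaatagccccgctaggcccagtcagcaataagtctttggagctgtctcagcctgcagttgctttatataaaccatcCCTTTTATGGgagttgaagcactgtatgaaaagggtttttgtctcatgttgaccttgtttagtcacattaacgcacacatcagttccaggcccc
EGR1: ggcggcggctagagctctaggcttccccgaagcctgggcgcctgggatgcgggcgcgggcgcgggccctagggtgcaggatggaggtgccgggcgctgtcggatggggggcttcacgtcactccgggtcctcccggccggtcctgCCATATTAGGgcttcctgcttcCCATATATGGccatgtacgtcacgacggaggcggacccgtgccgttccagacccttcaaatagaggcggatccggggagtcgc
MYLK went from 422, 382 and 411 normalized counts with DMSO to 209.9, 193, 227 and 249.5 with JQ1, and EGR1 from 425, 454 and 396 to 889, 782, 973 and 927.

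Collagens, which form the fibrils and networks of the extracellular matrix, had a lower median still. Of 43 collagen genes with values, 25 were tested, 17 fell as DEGs, 3 rose and 5 were not DEGs, with a median of −1.18. COL3A1 (type III collagen, ENSG00000168542.17, chr2:188974373-189012746) had 29612, 27402 and 29335 normalized counts with DMSO and 2472, 2520, 2549 and 3039 with JQ1 (−3.45 ± 0.07, limma adjusted p = 3.91e-15), a level 10.9 times lower. COL1A1 went from 217, 174 and 132 to 15.4, 9.79, 13 and 24.3 (−3.44 ± 0.26, adjusted p = 6.87e-09) and COL6A3 from 36199, 28433 and 31862 to 5269, 4694, 5227 and 6757 (−2.56 ± 0.10, adjusted p = 2.33e-12). Chains of the same protein had different values. Chosen after their values were seen, COL6A1 and COL6A2, the partners of COL6A3 in type VI collagen, were not DEGs (0.06 ± 0.09 and 0.09 ± 0.10), COL1A2 fell by 0.82 on the log2 scale where COL1A1 fell by 3.44, and COL5A2, at 63524 ± 2093 and 58179 ± 1474, was not a DEG where COL5A1 fell by 2.27. The 3 collagens that rose were COL2A1 (the cartilage collagen, from 22.7 to 83.8), COL7A1 (0.69) and COL18A1 (0.62). COL18A1 is among the genes that separate the JQ1 libraries, with 2399, 1562, 2339 and 1756 in replicates 17 to 20, and without replicates 17 and 19 its log2 fold change was 0.36 and it was no longer a DEG. It also lost the call without DMSO replicate 14 (0.58), JQ1 replicate 17 (0.53) or JQ1 replicate 19 (0.54). Under equal totals only COL2A1 remained a rising DEG. Against I-BET-762, 7 of the 25 collagens were lower with JQ1, beside 3.58% of all genes tested. Among them was COL3A1 (5806, 5981 and 5232 with I-BET-762, difference −1.10 ± 0.07, limma adjusted p = 6.13e-08). COL3A1 was chosen for its large fall in the same JQ1 libraries, which favours a value below that of I-BET-762.

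**Figure D3:**
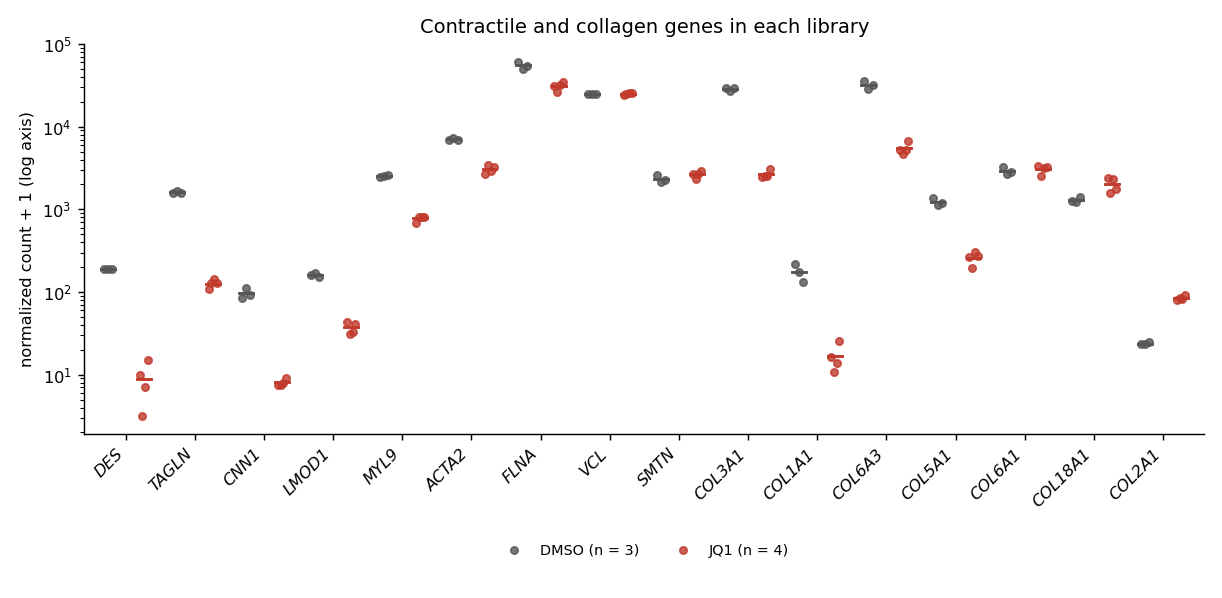
Normalized count plus 1 on a log axis for contractile genes (left) and collagen genes (right) in the 3 DMSO libraries (grey) and the 4 JQ1 libraries (red), with bars at the group means. DES, TAGLN, CNN1, COL3A1 and COL1A1 drop by more than 10-fold in mean count, VCL and COL6A1 stay at the same height, and COL2A1 rises.

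Laminins, which are chains of the basement membrane, and integrins moved in both directions. Of 11 laminin genes 10 were tested, and 5 fell, 1 rose and 4 were not DEGs (median −0.81). LAMA2, the laminin chain of muscle, fell from 2239, 2492 and 2443 to 276, 336, 277 and 293 (−3.02 ± 0.08, limma adjusted p = 4.63e-14) and LAMB3 from 88.1, 90.6 and 94.6 to 8.79, 2.18, 2.0 and 1.01 (−4.64 ± 0.44, adjusted p = 1.05e-07), whereas LAMA1, an embryonic chain, rose from 19 to 94.8 (2.25, adjusted p = 8.70e-09). LAMB3 was tested only through its DMSO values, and in JQ1 replicates 18, 19 and 20 it lay within the level that a count of 0 allows. Of 22 integrins, which are the cell surface receptors of this matrix, 7 fell and 3 rose (31.8% and 13.6%, beside 22.9% and 13.3% of all genes). ITGA4 fell from 625 ± 29.4 to 68.1 ± 16.7 (−3.21, adjusted p = 1.02e-10) and ITGB3, chain of the vitronectin receptor, rose from 32.4 ± 2.14 to 165 ± 10.6 (2.31, adjusted p = 9.39e-11). Matrix proteases and their inhibitors were mixed too (8 of 31 up, 10 down, or 25.8% and 32.3%). Of the 31, 3 had reached the minimum only in DMSO libraries. The inhibitors TIMP1 and TIMP3 rose, from 2450 to 5042 and from 503 to 1428, and the proteases ADAMTS2, ADAMTS10 and ADAM33 fell by 2.24, 2.38 and 3.21 on the log2 scale.

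Keratins and protocadherins had the lowest medians of the lists, −2.42 and −1.81. Of 34 keratin genes 11 were tested and 10 fell, with KRT10 the 1 that was not a DEG. KRT80, an epithelial filament keratin, had 333, 305 and 344 normalized counts with DMSO and 18.7, 18.5, 17 and 17.2 with JQ1 (−4.12 ± 0.15, limma adjusted p = 1.38e-12), and KRT19 went from 741 ± 1.03 to 246 ± 32.1 (−1.60, adjusted p = 7.88e-10). Other epithelial genes were lower too. Of a list of 14 epithelial markers, keratins included, 9 were tested and 7 fell, 3 of the 9 having reached the minimum only in DMSO libraries, and the list summed to 1440 to 1491 normalized counts with DMSO and to 608 to 759 with JQ1. Their part in the keratin result was not tested. Of 62 protocadherins, adhesion proteins best known from neurons, 28 were tested and 22 fell, 4 rose and 2 were not DEGs. Most lie in the clustered alpha, beta and gamma arrays, whose genes are near-identical copies and, in the alpha and gamma arrays, share their last exons, so counts of single members are uncertain. PCDHGA10 went from 216, 211 and 223 to 18.7, 16.3, 24 and 19.3 (−3.42 ± 0.18, adjusted p = 1.30e-10) and the unclustered PCDH7 rose from 27.1, 24 and 24.6 to 63.7, 44.6, 72 and 61.9 (1.21 ± 0.23, adjusted p = 1.56e-04). Of the tested members, 4 keratins and 8 protocadherins reached 10 normalized counts only in DMSO libraries, and 2 protocadherins only in JQ1 libraries. These had to differ to be tested, and their part in the medians was not tested.

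Ion channel genes were another falling family. Of 117 potassium, calcium and sodium channel genes 56 were tested, 35 fell as DEGs, 4 rose and 17 were not DEGs (median −1.21), and 9 of the 56 had reached the minimum only in DMSO libraries. CACNG7, an auxiliary calcium channel subunit, fell from 63, 69.3 and 44.6 to 2.2, 4.35, 1.0 and 3.04 (−4.10 ± 0.49, limma adjusted p = 1.46e-06), KCNMB2, a subunit of the calcium-activated potassium channel, from 162, 162 and 125 to 11, 19.6, 11 and 15.2 (−3.33 ± 0.23, adjusted p = 2.05e-09) and SCN4A, the sodium channel of skeletal muscle, from 63, 58.2 and 68.2 to 5.49, 10.9, 9.0 and 3.04 (−3.10 ± 0.35, adjusted p = 7.52e-07). CACNG7 in JQ1 replicates 17, 19 and 20 and SCN4A in replicate 20 lay within the level that a count of 0 allows. Against I-BET-762, 7 of the 56 channels were lower with JQ1, beside 3.58% of all genes tested.

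Guidance and adhesion signalling genes, which steer cell shape and migration, included many falls. Of 24 tested semaphorins and plexins 9 fell (37.5%) and 2 rose, SEMA6B going from 326 ± 4.62 to 21.1 ± 3.36 (−3.90, limma adjusted p = 1.04e-11) and SEMA7A from 139.8 ± 14.7 to 331 ± 24.3 (1.24, adjusted p = 1.22e-08). Of 13 adhesion GPCRs 7 fell and 1 rose, ADGRV1 falling by 2.94 and ADGRA3 rising by 0.81 on the log2 scale. Ephrins and Eph receptors went both ways (4 of 15 up, 6 down, or 26.7% and 40%, beside 13.3% and 22.9% of all genes). EFNB2, a ligand of EphB receptors, rose from 3.87, 8.32 and 1.82 to 62.6, 53.3, 63 and 72 (3.65 ± 0.34, adjusted p = 7.58e-08), and EPHA7 fell from 402 ± 25.1 to 55 ± 9.12 (−2.86, adjusted p = 8.76e-11). EFNB2 in DMSO replicate 15 lay within the level that a count of 0 allows.

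Genes of developmental pathways moved both ways. The shares that rose and fell were 19.6% and 34.8% for TGF-beta and BMP genes and 20% and 44% for Notch genes. They were 17.5% and 32.5% for WNT genes, beside 13.3% and 22.9% of all genes. In the TGF-beta and BMP list 9 of 46 tested genes rose and 16 fell. The ligands TGFB2 (−1.87) and TGFB3 (−2.13) and the binding protein LTBP2 (−2.50) fell, while the ligand BMP8A (1.54, with reads that its close copy BMP8B may share) and the receptor ACVR2A (1.41) rose and ID2, a target of BMP signalling that blocks helix-loop-helix factors, rose from 8583, 9850 and 9880 to 25122, 28894, 25791 and 22562 (1.44 ± 0.07, limma adjusted p = 7.82e-11). In the Notch list 5 of 25 rose and 11 fell. The ligand JAG1 fell from 1076 ± 61.4 to 205 ± 45.9 (−2.41, adjusted p = 1.94e-10), and HES6, of the HES family of repressors, rose from 60.0, 81.4 and 94.6 to 941, 615, 863 and 612 (3.25 ± 0.17, adjusted p = 6.42e-11). HES6 too was higher in replicates 17 and 19. Among 40 WNT genes 7 rose and 13 fell, with ligands and receptors in both directions. The receptors FZD8 and FZD1 (log2 fold change 2.55 and 1.29) and the ligand WNT11 (1.65) rose, and the receptor FZD6 (−1.59), the ligand WNT2B (−2.71) and the WNT antagonist DKK2 (−2.99) fell. Of 10 tested FGF ligands and receptors 4 rose and 1 fell. FGFR3 went from 579, 566 and 562 to 2459, 2130, 2618 and 2386 (2.07 ± 0.07, adjusted p = 2.80e-13), FGFR2 from 59.3 to 213 and the ligand FGF18 from 30.1 to 179. In the IGF axis the binding proteins diverged, IGFBP5 falling from 374 ± 44.3 to 21.3 ± 8.7 and IGFBP2 rising from 922 ± 20.2 to 2052 ± 211, with adjusted p-values of 7.82e-10 and 4.98e-10.

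Immediate early genes, the transcription factors and regulators that cells switch on within minutes of a stimulus, rose. Of 26 listed 25 were tested, 14 rose as DEGs, 0 fell and 11 were not DEGs, with a median of 0.76. At an unadjusted p under 0.05, 18 were higher and 1 was lower, beside 37.2% and 36.8% of all genes. The lower gene was NR4A1 (−0.30 ± 0.12, limma adjusted p = 0.0302), and voom also gave 14 and 0 DEGs. IER3, a regulator of apoptosis in the MHC region whose reads may be shared with alternate copies, had 54.2, 49.9 and 53.7 normalized counts with DMSO and 450.5, 429, 460.2 and 390.5 with JQ1 (3.01 ± 0.11, limma adjusted p = 9.96e-13). ATF3, the stress-induced partner of JUN, went from 209, 181 and 183 to 808, 679, 753 and 701 (1.94 ± 0.09, adjusted p = 1.24e-11). Chosen after their values were seen, FOS went from 1379, 1341 and 1241 to 2777, 2526, 2870 and 2693 (1.04 ± 0.10, adjusted p = 1.66e-07) and JUN from 1942, 2029 and 1956 to 6676, 4100, 6454 and 4569 (1.43 ± 0.13, adjusted p = 8.37e-08). FOSB, FOSL2 and SRF did not move past the threshold (0.01, 0.07 and −0.06).

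JUN, JUNB, JUND and KLF2 belong to the genes that separate the JQ1 libraries. JUNB had 2843, 1695, 2851 and 1701 normalized counts in JQ1 replicates 17 to 20 and 1323, 1518 and 1415 with DMSO, and JUND 3739, 2031, 3981 and 2122 and 1145, 1190 and 1359, so that replicates 17 and 19 were high and 18 and 20 low in each. Without replicates 17 and 19 the log2 fold change of JUN was 1.13, that of JUND 0.76 and that of KLF2 1.17, all DEGs, and that of JUNB 0.26, no longer a DEG. The list then held 13 rising DEGs, and 15 without replicates 18 and 20. Against I-BET-762, 11 of the 25 genes were higher with JQ1, beside 1.76% of all genes tested. The number 11 depended on the same libraries, with 5 genes higher without replicates 17 and 19 and 13 without replicates 18 and 20. JUND differed from I-BET-762 by 0.66 ± 0.18 (adjusted p = 0.0149) over all 4 libraries and by 0.21 (adjusted p = 0.0659) without replicates 17 and 19, whereas IER3, at 178, 158 and 191 with I-BET-762, differed by 1.29 ± 0.11 and by 1.22 (adjusted p = 5.59e-05). IER3 was chosen for its large rise in the same JQ1 libraries, which favours a value above that of I-BET-762.

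ERK feedback genes, many of which are transcribed under the ERK kinase and restrain it through their products, did not move as 1 group. Of 26 tested, 8 rose and 8 fell (30.8% each, beside 13.3% and 22.9% of all genes). The other 10 were not DEGs, and with equal totals 7 rose and 9 fell. The 3 largest rises and the 3 largest falls by the naming rule are given. DUSP6, the phosphatase of ERK, had 325, 411 and 406 with DMSO and 1865, 1960, 1883 and 1706 with JQ1 (2.29 ± 0.08, limma adjusted p = 7.35e-13), SPRY4, an inhibitor of receptor signalling, 632, 583 and 566 and 2299, 2054, 2342 and 2607 (1.96 ± 0.07, adjusted p = 2.61e-12) and ETV5, an ETS factor, 469.7, 440.1 and 429 and 2218, 2383, 2316 and 2598 (2.41 ± 0.06, adjusted p = 4.84e-14). DUSP6, SPRY4 and ETV5 were also higher than with I-BET-762, by 1.14, 1.0 and 0.74 on the log2 scale (limma adjusted p-values 1.53e-07, 3.72e-07 and 1.19e-06). All 3 were chosen for large rises in the same JQ1 libraries, which favours values above those of I-BET-762. In all libraries 5 of the 26 members were higher than with I-BET-762, beside 1.76% of all genes tested. The number was also 5 without replicates 17 and 19 and 5 without replicates 18 and 20. The fallers DUSP9 (−2.28), SPRED3 (−1.73) and DUSP23 (−1.51) belong to the same families. In the YAP1 and TEAD target list 13% rose and 26.1% fell, near the shares over all genes. Among YAP1 and TEAD target genes 3 of 23 rose and 6 fell, with the secreted proteins CCN2 and CCN1 rising from 240.2, 293 and 246 to 1912, 1693, 1853 and 1843 and from 1128 ± 142 to 2997 ± 138 (adjusted p-values 6.72e-13 and 5.09e-10) and the receptor kinase AXL falling from 6610 ± 198 to 2642 ± 106 (adjusted p = 8.67e-13).

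Metallothioneins, small cysteine-rich proteins that bind zinc and copper, rose. Of 9 genes 6 were tested, 5 rose and 1 fell, with a median of 2.01. MT2A, chosen after its values were seen, had 13320, 13617 and 12203 normalized counts with DMSO and 51990, 50565, 57630 and 48197 with JQ1 (2.0 ± 0.06, limma adjusted p = 3.47e-13, 3.99 times). MT1X went from 1584, 1624 and 1415 to 5539, 6676, 6701 and 6277 (2.03 ± 0.07, adjusted p = 6.04e-13) and MT1A from 502, 477 and 364 to 1737, 1620, 1908 and 1942 (2.02 ± 0.10, adjusted p = 4.22e-11). MT1F was the exception, at 219.9, 244 and 189 with DMSO and 128, 152, 134 and 143 with JQ1 (−0.64 ± 0.11, adjusted p = 1.03e-04), and it was no longer a DEG without DMSO replicate 14 or without JQ1 replicates 17 and 19 (−0.55 each). With I-BET-762 the counts of MT2A were 36858, 33924 and 33594, between the other groups. These genes sit side by side on chromosome 16 and are near-identical in sequence, so reads could be exchanged between members.

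Metallothionein promoters are known for the metal response element. Its core, TGCACNC or TGCGCNC on either strand, was searched in the 250 bases before the start, where 33.6% of the promoters of tested genes held at least 1 copy. RefSeq promoters were found for MT2A and MT1X, 2 of the 6 tested metallothioneins. MT2A held 7 copies at chr16:56608334-56608583 and MT1X 4 at chr16:56682220-56682469, both on the plus strand of GRCh38.p14. They are shown because these genes rose by similar amounts, and capitals mark the cores.
MT2A: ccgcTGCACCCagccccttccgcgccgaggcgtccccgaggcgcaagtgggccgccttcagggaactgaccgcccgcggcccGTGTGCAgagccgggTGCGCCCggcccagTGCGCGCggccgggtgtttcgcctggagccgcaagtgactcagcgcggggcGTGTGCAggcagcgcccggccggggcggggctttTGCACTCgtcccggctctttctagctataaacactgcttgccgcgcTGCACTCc
MT1X: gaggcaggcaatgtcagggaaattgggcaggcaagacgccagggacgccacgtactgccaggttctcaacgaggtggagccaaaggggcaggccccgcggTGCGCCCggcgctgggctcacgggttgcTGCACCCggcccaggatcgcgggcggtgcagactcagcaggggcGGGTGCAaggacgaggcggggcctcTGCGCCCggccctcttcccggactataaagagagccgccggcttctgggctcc
No factor's binding was measured here.

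**Figure D4:**
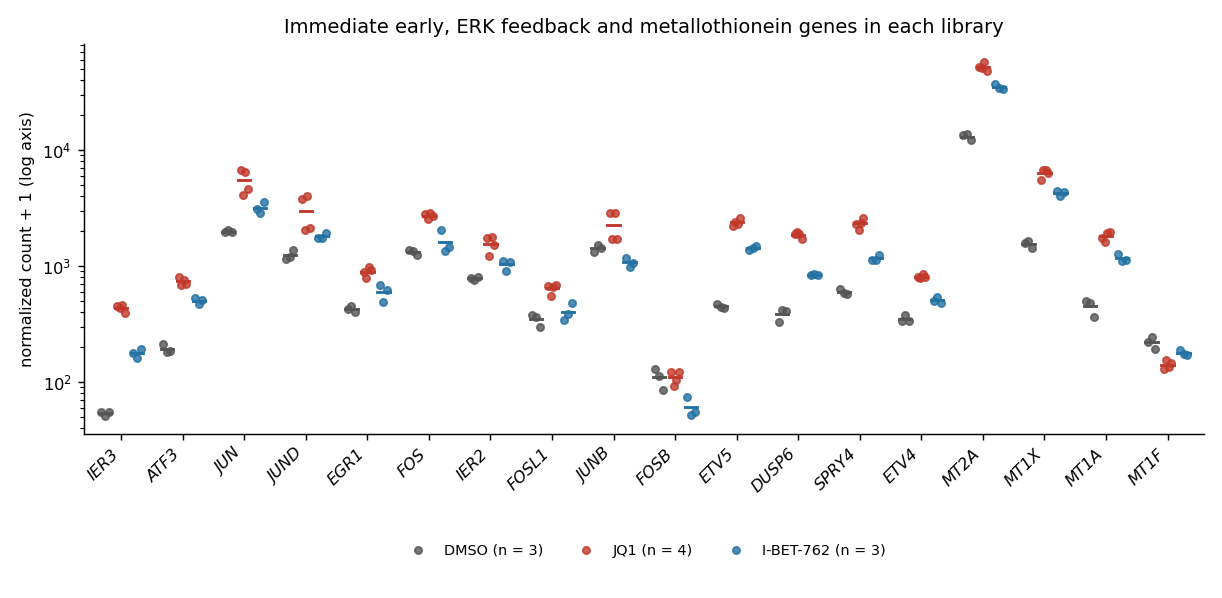
Normalized count plus 1 on a log axis for immediate early genes (IER3 to FOSB), ERK feedback genes (ETV5 to ETV4) and metallothioneins (MT2A to MT1F) in the DMSO (grey, n = 3), JQ1 (red, n = 4) and I-BET-762 (blue, n = 3) libraries, with bars at the group means. IER3, ETV5, DUSP6 and MT2A stand clear of DMSO in every JQ1 library, while the JQ1 points of JUN, JUND and JUNB fall into a high and a low pair.

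Stress response genes moved as single genes rather than as whole lists. The shares that rose and fell were 32% and 20% for NFE2L2 antioxidant genes and 13.5% and 10.8% for heat shock and DNAJ genes. They were 17.9% and 10.3% for ATF4 and unfolded protein response genes, beside 13.3% and 22.9% of all genes. Among 25 NFE2L2 antioxidant genes 8 rose and 5 fell. TXNRD1 (thioredoxin reductase) went from 25939 ± 790.2 to 55441 ± 3988 and GCLC, of glutathione synthesis, from 1578 ± 117 to 3239 ± 211, while SLC7A11, the cystine importer that feeds the same pathway, fell from 2633, 2594 and 2645 to 872, 829, 819 and 783 (−1.67 ± 0.06, limma adjusted p = 6.72e-13). Of 74 heat shock and DNAJ genes 10 rose and 8 fell, and with equal totals 4 rose and 10 fell. The abundant chaperone HSP90AA1 rose from 78982 ± 3714 to 152539 ± 19659 (0.94, adjusted p = 6.52e-08), and DNAJC6, the clathrin uncoating factor auxilin, from 13.6, 12.9 and 12.7 to 104, 92.5, 82 and 113 (2.80 ± 0.17, adjusted p = 7.38e-10). In the ATF4 and unfolded protein response list 7 of 39 rose and 4 fell. Among 19 tubulins 2 rose, TUBB4B from 24041, 25130 and 24675 to 92804, 94179, 90070 and 93975 (1.91 ± 0.05, adjusted p = 3.23e-14) and the neuronal TUBB3 from 344 to 1086, and 2 fell. Tubulin genes share much of their sequence, so single values are uncertain.

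The lists of antigen presentation, complement, chemokine and cytokine receptor genes each held more falls than rises. Of 11 tested antigen presentation genes 7 fell and 2 rose (median −1.25). ERAP2 and ERAP1, the peptidases that trim peptides for class I antigen presentation, fell from 5372, 5772 and 5914 to 1044, 1120, 1014 and 1079 and from 2171 ± 83 to 779.8 ± 48.4 (−2.42 ± 0.06 and −1.48 ± 0.06, limma adjusted p = 1.08e-14 and 4.90e-12). Of 12 complement genes 7 fell and 2 rose. The proteases that start the classical pathway, C1R and C1S, went from 565, 603 and 605 to 50.5, 55.5, 42 and 62.9 and from 193 ± 22.9 to 22.3 ± 4.58 (−3.48 and −3.07, adjusted p = 2.66e-12 and 1.55e-09), and CLU (clusterin), an inhibitor of the terminal complex, rose from 2266 ± 133 to 6565 ± 487 (1.53, adjusted p = 4.37e-12). Of 22 chemokines and interleukins 13 fell and 1 rose (median −1.08), with the neutrophil attractants CXCL5 and CXCL3 at −2.65 and −1.56 and CCL28 at −2.15. Of those 22, 6 had reached the minimum count only in DMSO libraries. Of 46 cytokine and chemokine receptors 21 fell and 9 rose, and 5 of the 46 had likewise reached the minimum only in DMSO libraries, as had 1 antigen presentation gene and 1 complement gene. TNFRSF12A, the receptor of TWEAK, rose from 1180, 1268 and 1286 to 5597, 4242, 5081 and 4026 (1.92 ± 0.09, adjusted p = 2.02e-11), and IFNLR1, the interferon lambda receptor, fell from 574 ± 34 to 122 ± 10.6 (−2.23, adjusted p = 1.33e-10). The 10 leukocyte markers in the table summed to 76.4 to 97.8 normalized counts with DMSO and 49.4 to 61.9 with JQ1. Their part in these results was not tested.

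Most cytosolic ribosomal protein genes were not DEGs. Of the 76 tested genes 13 rose (17.1%, beside 13.3% of all genes) and 0 fell as DEGs in limma and in voom, with a median of 0.36, and at an unadjusted p under 0.05, 64 were higher and 1 was lower. At that unadjusted threshold 37.2% of all genes tested were higher and 36.8% lower, and the counts at an unadjusted p that follow stand beside the same shares. The largest rises among ribosomal protein genes were in RPL36 (from 11911 ± 511 to 24394 ± 4177, log2 fold change 1.02 ± 0.10, limma adjusted p = 1.13e-07) and RPS28 (0.90 ± 0.05, adjusted p = 2.07e-10). Of the 44 factors that build ribosomes 12 rose and 1 fell, with a median of 0.43, RRP9 going from 1443, 1516 and 1302 to 2783, 3135, 2941 and 3196 (1.08 ± 0.07, adjusted p = 5.31e-10) and RRP12 from 2599 ± 35 to 5410 ± 473 (1.05, adjusted p = 1.85e-10). RNA polymerase subunits had 6 of 30 up and 0 down (20 and 2 at an unadjusted p under 0.05), POLR2A, the catalytic subunit of RNA polymerase II, rising from 4872, 3742 and 3717 to 7478, 7355, 9922 and 8946 (1.04 ± 0.10, adjusted p = 1.58e-07). The snoRNA host RNAs had 5 of 19 up and 0 down (10 and 3 at an unadjusted p under 0.05), SNHG1 rising from 7169 to 12514. These counts depended on the scaling. With equal totals 8.21% of all genes were DEGs up and 28.5% DEGs down, and the rising DEGs numbered 5 of 76 ribosomal protein genes, below the share over all genes, 5 of 44 biogenesis genes, 3 of 30 polymerase subunits (with 1 falling) and 3 of 19 snoRNA hosts, and the medians of the ribosomal protein and biogenesis genes were 0.18 and 0.25. Mitochondrial ribosomal protein genes, at 7 of 75 up and 6 down with a median of 0.06 that turned to −0.13 with equal totals, had counts on both sides, as did the nuclear genes of oxidative phosphorylation (4 up and 3 down of 87). With equal totals the falls outnumbered the rises in both lists, at 1 up and 10 down and at 2 up and 7 down. Of 43 proteasome genes 1 fell, the immunoproteasome subunit PSMB10 at −1.37, and 0 rose as DEGs (21 higher and 9 lower at an unadjusted p under 0.05).

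More histone genes rose than fell. Of 58 core histone genes 43 were tested, 13 rose as DEGs, 1 fell and 29 were not DEGs (median 0.41), and of 8 linker histone genes 6 were tested and 5 rose (median 0.72). H2BC6 had 114, 98 and 103 normalized counts with DMSO and 402, 416, 456 and 426 with JQ1 (2.01 ± 0.09, limma adjusted p = 1.54e-11). The germ cell linker H1-6 went from 21.2 to 68.2 (1.63, adjusted p = 1.32e-06). H3C6 was the core histone gene that fell, from 616 ± 52.5 to 385 ± 35.2, and without replicates 18 and 20 its log2 fold change of −0.58 was no longer a DEG. Core histone genes are near-identical copies and most of their transcripts lack poly(A) tails, so both mapping and RNA selection can affect these values. Equal totals left 7 core histone genes up and 3 down and 2 linkers up, and without replicates 17 and 19 the numbers were 10 up and 3 down, and 3 linkers, with H1-10 at 0.38 in place of 0.72.

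**Figure D5:**
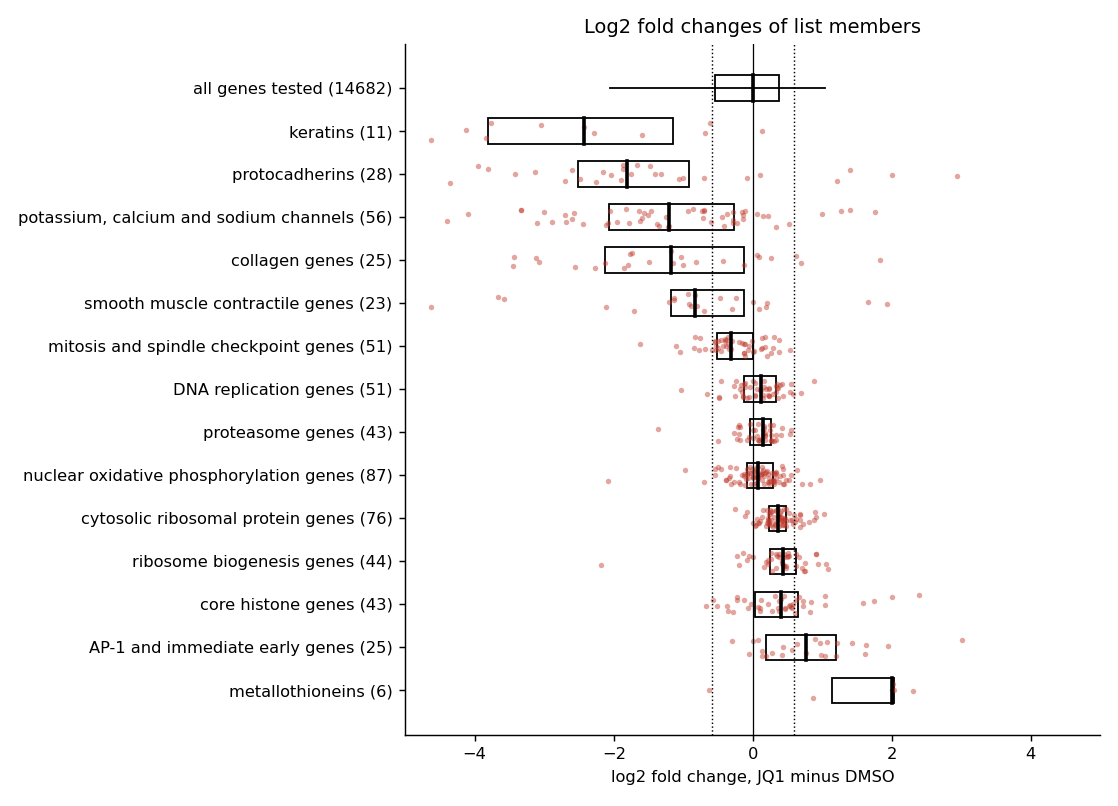
Log2 fold changes, JQ1 minus DMSO, of the tested members of 14 gene lists (red points, number in brackets), with boxes from the 25th to the 75th percentile and thick lines at the medians, and for all 14682 genes a box with a line from the 5th to the 95th percentile. Dotted lines mark 1.5-fold. Keratins and protocadherins lie far to the left with medians of −2.42 and −1.81, ribosomal protein genes form a narrow band around 0.36, and metallothioneins lie around 2.01.

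Most cell division genes were not DEGs. Of 51 mitosis and spindle checkpoint genes 9 fell, 0 rose and 42 were not DEGs (median −0.31), and voom gave the same numbers. The falling share of 17.6% lay below the 22.9% of all genes. At an unadjusted p under 0.05, 31 were lower and 10 higher (36.8% and 37.2% of all genes), several by less than 1.5-fold, as for PLK1 (−0.41 ± 0.05, limma adjusted p = 2.24e-06), and CDC20 was higher by 0.37 ± 0.04 (adjusted p = 1.46e-06). FOXM1, the factor that drives many G2 and M phase genes, went from 3914, 3569 and 3702 to 1075, 1134, 1286 and 1367 (−1.62 ± 0.07, adjusted p = 1.52e-11) and AURKA, the mitotic kinase, from 5349, 6052 and 5709 to 2632, 2970, 2516 and 2511 (−1.10 ± 0.06, adjusted p = 2.00e-10). With equal totals 19 of the 51 fell, where 28.5% of all genes were DEGs down. Of 51 DNA replication genes only 2 fell and 2 rose (median 0.12, or −0.06 with 5 falls and 1 rise under equal totals), MCM5, a helicase subunit, from 7412 ± 229 to 3608 ± 158 (−1.04, adjusted p = 1.73e-11) and RRM2, of the enzyme that makes deoxynucleotides, from 15916 ± 640.2 up to 29340 ± 793 (0.88, adjusted p = 1.45e-10). Of 41 homologous recombination and Fanconi genes 4 fell (9.76%, beside 22.9% of all genes) and 1 rose. Those that fell included RAD51B and RAD51D at −1.57 and −1.51 and FANCD2 from 4085 ± 115 to 1536 ± 92.2 (−1.41, limma adjusted p = 2.07e-12).

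Regulators of the G1 phase went in opposite directions. In the list of cyclins, CDKs and CDK inhibitors 7.69% rose and 30.8% fell, beside 13.3% and 22.9% of all genes. CCND1 (cyclin D1) rose from 5431, 5616 and 5378 to 13173, 10272, 12458 and 11912 (1.12 ± 0.07, limma adjusted p = 5.08e-10), while E2F2, E2F8 and CDKN2C fell by 1.78, 1.13 and 1.07 on the log2 scale, and in all 2 of 26 rose and 8 fell. In the p53 target list 6 of 28 rose and 5 fell (21.4% and 17.9%), and with equal totals 5 went each way. PLK3, a stress kinase, rose from 127 to 538 (2.07, adjusted p = 1.84e-11) and RRM2B from 2575 ± 167 to 6531 ± 647 (1.34, adjusted p = 5.83e-11), while MDM2, the ligase of p53, fell from 6352 ± 232 to 3739 ± 162 (−0.77, adjusted p = 8.38e-10). In the BCL2 family 3 of 17 rose and 4 fell (17.6% and 23.5%, near the shares over all genes). The killer BCL2L11 (BIM) went from 241, 209 and 204 to 643, 499, 684 and 590.3 (1.46 ± 0.10, adjusted p = 3.46e-09) and the protector MCL1 from 13198, 14220 and 14368 to 28996, 27648, 27673 and 26125 (0.99 ± 0.05, adjusted p = 4.73e-11), both up, whereas BAD, BBC3 and BCL2L1 fell by 1.05, 0.84 and 0.61.

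Among metabolic and transport genes the direction depended on the gene. The shares that rose and fell were 22.2% and 14.8% for glycolysis and 9.68% and 16.1% for cholesterol synthesis. They were 14.6% and 16.7% for lysosome genes, beside 13.3% and 22.9% of all genes. Of 27 glycolysis genes 6 rose and 4 fell (5 and 5 with equal totals), TPI1 going from 40842 ± 1198 to 80689 ± 5402 (0.98, limma adjusted p = 5.06e-10) and PDK2, which turns off pyruvate dehydrogenase, from 1127 ± 32.6 to 236 ± 18.3 (−2.26, adjusted p = 1.54e-12). Of 31 cholesterol synthesis genes 3 rose and 5 fell, with TM7SF2, a sterol reductase, at 2.26. Of 219 solute carriers 37 rose and 62 fell, shares of 16.9% and 28.3% beside backgrounds of 13.3% and 22.9%. Of the 219, 9 had reached the minimum only in DMSO libraries and 2 only in JQ1 libraries. SLC6A8, the creatine importer, went from 431, 422 and 430.4 to 1966, 1764, 1940 and 2142 (2.19 ± 0.07, adjusted p = 2.18e-13) and SLC8A1, the sodium-calcium exchanger, from 98.8, 85 and 131 to 7.69, 7.62, 15 and 4.06 (−3.56 ± 0.37, adjusted p = 2.78e-07). Among 31 ABC transporters ABCA6 and ABCA8, lipid transporters of one gene cluster, fell from 150.2 ± 13.2 to 11.6 ± 3.91 and from 2214 ± 40.9 to 314 ± 6.46 (adjusted p = 1.37e-08 and 9.11e-15). Of 86 glycosyltransferases 14 rose and 30 fell (16.3% and 34.9%). In the lysosome the cysteine protease CTSS fell from 233, 234 and 239 to 12.1, 12, 18 and 18.3 (−3.90 ± 0.21, adjusted p = 1.08e-10) and TFEB, the master factor of lysosome genes, from 235 ± 10.1 to 56.8 ± 6.99 (−2.04, adjusted p = 7.36e-09), though the 48 lysosome genes as a list had 7 up and 8 down.

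Transcription factor families also divided. The shares that rose and fell were 6.9% and 34.5% for nuclear receptors and 17.9% and 7.14% for Mediator subunits. They were 21.1% each for SOX, FOX and TBX factors, beside 13.3% and 22.9% of all genes. Of 29 nuclear receptors 10 fell and 2 rose (median −0.41), and 1 of the 29, NR5A1, had reached the minimum only in DMSO libraries. NR5A1, the steroidogenic factor, went from 83.3, 77.7 and 90.1 to 9.89, 7.62, 6.0 and 4.06 (−3.48 ± 0.28, limma adjusted p = 1.94e-08) and RARG, a retinoic acid receptor, from 2303 ± 102 to 609 ± 58 (−1.92, adjusted p = 3.76e-12), while VDR, the vitamin D receptor, rose from 93.8 to 197. Of 446 ZNF genes 58 rose and 66 fell (13.0% and 14.8%), and after rescaling to equal totals 27 rose and 97 fell. ZNF532 fell from 1625, 1578 and 1626 to 91.2, 93.6, 102 and 111 (−4.01 ± 0.10, adjusted p = 2.27e-14). Of 28 Mediator subunits, the bridge between enhancer factors and RNA polymerase II, 5 rose and 2 fell (3 and 4 with equal totals), MED24 going from 3188, 2902 and 2998 to 968, 872, 964 and 1099 (−1.64 ± 0.07, adjusted p = 1.04e-11). Of 38 SOX, FOX and TBX factors 8 rose and 8 fell under the deposited scaling, and 4 rose and 16 fell with equal totals.

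Long noncoding RNAs included many falls. Of 665 LINC RNAs with values, 182 were tested, 86 fell (47.3%, beside 22.9% of all genes) and 30 rose (16.5%, beside 13.3%), with a median of −0.52, and 23 of the 182 had reached the minimum only in DMSO libraries and 9 only in JQ1 libraries. LINC00707 went from 103, 112 and 103 to 6.59, 4.35, 4.0 and 1.01 (−4.57 ± 0.40, limma adjusted p = 4.29e-08), and LINC00910 rose from 214, 162 and 169 to 2020, 1954, 2242 and 1975 (3.50 ± 0.09, adjusted p = 3.53e-14) and was higher than with I-BET-762 by 1.02 ± 0.09 (adjusted p = 1.23e-06). LINC00707 in JQ1 replicate 20 lay within the level that a count of 0 allows. LINC02603 rose to 64.8, 62, 61 and 75 from 2.91, 1.85 and 0.91, which lie within the level that a count of 0 allows. Of 345 antisense RNAs 107 fell and 38 rose (median −0.22), and 22 of the 345 had reached the minimum only in DMSO libraries and 4 only in JQ1 libraries. Because the strand setting of the counting is not given in the sources used here, their reads cannot be told apart from those of the genes on the other strand. Of 20 miRNA host RNAs 6 fell and 1 rose, MIR99AHG going from 4492, 3732 and 4005 to 713, 748, 722 and 707 (−2.49 ± 0.07, adjusted p = 5.56e-14).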

How the data were processed

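The deposited table held log2 values of normalized counts plus 1 for 22784 gene symbols, made by the authors. Per the methods and labels, the steps were FastQC 0.73, trimming by Trimmomatic, alignment by HISAT2 2.2.1 on hg38, counting on a Gencode annotation with featureCounts 2.0.3 and normalization by DESeq2, and samples judged outliers were excluded by the authors. The strand setting and the version of Trimmomatic are not given in the sources used here. Of the genes tested, 45.2% overlap a gene on the opposite strand, so overlapping genes are uncertain.

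The log2 values were turned back to normalized counts. In each library 99.73% to 99.77% of the values were whole multiples of 1 read, which gave the reads per library. Genes with a normalized count of at least 10 in at least 3 of the 7 JQ1 and DMSO libraries were fitted with limma 3.58.1 (R 4.3.3, eBayes with trend) on log2(normalized count + 1), all 10 libraries in 1 model, with Benjamini-Hochberg adjustment over the 14682 genes. Fold changes on this scale understate those of low genes. Summaries used Python 3.11.15. On simulated data for JQ1 against DMSO, 199 of 200 changed genes among 14740 were called, and 1 unchanged gene. The simulation held far fewer changed genes than the 5320 called here, so it does not give the error rate of those calls. No replicate pair was identical (chi-square per gene 2.74 to 21.4 over 9 pairs). The 95% intervals come from the limma standard errors, that is from the spread between libraries. The floors cover counting error only.

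Genes were named if they were among the 12 largest rises or falls (mean of at least 100 in the higher group, no overlap), the 5 largest gains or losses in mean count, the 3 largest changes each way of a list (mean of at least 50), or in the BET and P-TEFb list with MYC, leaving out, except in that list, genes the study names. Genes printed outside this rule were picked with their values known, also in the sentences on genes that were not DEGs, on the JQ1 library pairs and on promoters. The members and the 84 gene lists were chosen with earlier results of these data known. Coordinates and identifiers are from Gencode 44 on GRCh38. The alternatives covered the pseudocount, filter, scaling, variance model, samples fitted, voom on the recovered reads, fold threshold and each library left out. A few genes and 1 list are not reported here.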

Additional observations from a re-analysis of the deposited data

Results flagged for a closer look

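Among 403 of the genes named by the rule, 22 (5.46%) had a JQ1 library apart from the other 3 by Dixon's criterion, which chance meets in about 1 in 20 groups. The lone library was replicate 20 in 10 genes, replicate 18 in 8, and replicates 17 and 19 in 2 each. In normalized counts, replicate 20 was the highest for COL3A1 (3038.7, others up to 2549.1), ITGA2B (31.44), LAMA1 (120.7, others up to 88.04), TIMP3 (1561.9), TRIM46 (12.17), AXL (2800.3), TEAD3 (324.6), PSAP (27995.3) and ATG9A (1057.9), and the lowest for EIF2AK2 (5558.1). Replicate 18 was the highest for ANXA1 (101934.4, others up to 84318.1), ACVR2A (661.5), RGS2 (449.4, others up to 306.3), COX6A1 (2425.2), CTSV (2822.3) and CCNT1 (8236.3), and the lowest for TFPI2 (190.4) and CXCL5 (62.02). Replicate 17 was the highest for LAMB3 (8.791, others up to 2.176) and the lowest for CCL28 (30.77, others from 48.02), and replicate 19 was the highest for SERPINE2 (662.3) and the lowest for TENM3 (108, others from 136).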

How the results depend on the processing

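The numbers of JQ1 DEGs against DMSO were 1960 higher and 3360 lower. A mean of at least 100 left 1969 lower, equal totals gave 1206 higher, no fold threshold gave 5328 higher and 5272 lower, and a 2-fold threshold 773 and 2145. Against I-BET-762 (258 higher, 525 lower) a mean of at least 100 gave 161 and 273, no fold threshold 1983 and 2067, and a 2-fold threshold 71 and 127. Of 78 lists with at least 10 tested members, 23 had more rises than falls, 14 with equal totals and 12 at 2-fold. Leaving out 1 library gave 1891 to 1999 higher and 3272 to 3374 lower than DMSO, 199 to 316 higher and 404 to 582 lower than I-BET-762, and 20 to 24 lists. Without JQ1 replicates 18 and 20, a choice made after seeing the data, 413 genes were higher than I-BET-762, and without replicates 17 and 19, 172. voom on the recovered reads called 1962 higher and 3391 lower. The median over all genes moved by −0.18 with equal totals and by −0.06 with equal upper quartiles. Signs turned for CDK9 with equal totals (−0.12), for CCNT2 with equal totals (−0.16), equal upper quartiles (−0.04), and without DMSO replicate 13 or JQ1 replicate 18 (−0.01 to 0.05 over the libraries left out), for ELL3 with equal totals (−0.03) and without DMSO replicate 13 (−0.05 to 0.41), and for NELFB with equal totals (−0.13) and equal upper quartiles (−0.00). The cause was not tested. Of 7266 values for 409 named genes, 92 in 42 genes lost the call, and 18 genes lost it without 1 library. No paired analysis was possible because the replicate numbers 13 to 24 are all different. Reads per library limit genes near the minimum of 10 normalized counts.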

Other observations

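Serpins, inhibitors of serine proteases, were among the lists with more rises than falls (5 of 10 tested rose and 2 fell). SERPINI1 (neuroserpin) went from 7.75, 10.2 and 7.28 normalized counts with DMSO to 65.9, 74, 37 and 51.7 with JQ1 (2.60 ± 0.26, limma adjusted p = 1.72e-07) and SERPINB9, the inhibitor of granzyme B, from 1522, 1548 and 1508 to 3624, 3537, 3596 and 3675 (1.24 ± 0.04, adjusted p = 9.98e-13). SERPING1, which blocks complement C1, fell from 229.9 ± 9.05 to 51.5 ± 7.68 (−2.15, adjusted p = 1.29e-09). Regulators of NF-kB fell in 7 and rose in 3 of 23 cases (30.4% and 13%, beside 22.9% and 13.3% of all genes). With equal totals or with equal upper quartiles 1 rose. The feedback inhibitor TNFAIP3 went from 253 ± 24.4 to 104 ± 1.25 (−1.27, adjusted p = 4.35e-08) and the kinase IKBKE from 754, 771 and 726 to 187, 181, 199 and 186 (−1.99 ± 0.08, adjusted p = 6.24e-12), while BIRC3, a ubiquitin ligase of the pathway, rose from 733, 929 and 912 to 1205, 1437, 1392 and 1304 and stood at 670.1, 645 and 729 with I-BET-762 (JQ1 minus I-BET-762 0.97 ± 0.09, adjusted p = 1.61e-06). The rise of BIRC3 over DMSO (0.64 on the log2 scale) was no longer a DEG with equal totals (0.46), with equal upper quartiles (0.58) or without DMSO replicate 13 (0.53).

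Motor and neuronal genes moved both ways. The shares that fell and rose were 29% and 9.68% for myosins and 28.9% and 13.2% for kinesins. These lay near the 22.9% and 13.3% of all genes, and the synaptic and neuronal list had 42.9% and 22.9%. Of 31 myosins 9 fell and 3 rose, MYO5C, a carrier of secretory granules in epithelia, from 384, 362 and 360.4 to 26.4, 23.9, 18 and 21.3 (−4.0 ± 0.16, limma adjusted p = 4.36e-12), and MYO6, which walks to the minus end of actin, from 105 ± 19.4 to 229 ± 26 (1.12, adjusted p = 9.27e-07). Of 38 kinesins 11 fell and 5 rose, KIF5C going from 81.9 ± 13.3 to 276 ± 37.2 (1.74, adjusted p = 5.89e-09) and KIF17 from 214 ± 30.5 to 61.3 ± 11.9 (−1.80, adjusted p = 9.90e-08). Of 35 synaptic and neuronal genes 15 fell and 8 rose, with the vesicle protein SNAP25 falling from 199 ± 36 to 44.5 ± 3.56 and SYT11 rising from 71.6 ± 2.68 to 282 ± 26.3, adjusted p-values 3.30e-09 and 1.38e-10. RGS11, which turns off G protein signalling, had 68.8, 61.9 and 74.6 with DMSO and 2.2, 0, 2.0 and 1.01 with JQ1, where it lay within the level that a count of 0 allows, at least 21.7-fold lower against 3 reads per library.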
